A study of Mus musculus with 6 samples.

Results

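Semaphorins, plexins and neuropilins form a ligand and receptor system that steers growing axons, and their probes were followed here in sorted motor neurons. The members were 31 genes given by name, on an array whose annotation names 19057 gene symbols: 20 semaphorins as ligands and 11 receptors, made up of 9 plexins and 2 neuropilins. Every probe whose platform annotation carried the symbol of a member was taken, detected or not. This gave 79 of the 45281 probes on the array, 55 for ligands and 24 for receptors. Of the 31 genes 30 had a probe, and Sema5b had none under its own symbol. A further probe listed Nrp2 together with another symbol and was not used.

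Motor neurons were sorted by their HB9::GFP reporter, a fluorescent protein driven by a motor neuron promoter, at cervical level from mouse embryos of stage e12.5. All 6 samples shared that reporter and a mixed background of c57/bl6, balbc and fvb. Wild-type embryos gave 3 samples, and embryos labelled Hox5 mut gave 3, with the genotype Hoxa5fl/fl::olig2CREHoxc5-/- in the series title. In that genotype Hoxa5 is removed only in cells with a history of Olig2-driven Cre, which acts in motor neuron progenitors, while Hoxc5 is lost in the whole embryo. The labels do not say whether the wild-type embryos carried the Cre or a floxed allele, or whether a sample is 1 embryo or a pool. Each RNA was read on 1 Illumina bead array, and the p-values speak only of the spread among these 6 samples.

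Semaphorins are secreted or membrane-bound proteins with a shared sema domain. Plexins are their signalling receptors and act on small GTPases and the cytoskeleton to make a growth cone collapse or turn. Secreted class 3 semaphorins mostly bind a neuropilin, which holds no signalling domain of its own and pairs with an A-type plexin, whereas Sema3e binds Plxnd1 directly. In the mouse limb, Sema3a with Nrp1 and Sema3f with Nrp2 time and sort the ingrowth of motor axons. Motor neurons also make semaphorins themselves, so both ligands and receptors are of interest in these cells.

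Levels are log2 intensities after background correction and quantile normalization, with detection as a detection p under 0.05. A difference is the mean of the arrays labelled mutant minus the mean of the wild-type arrays on that scale, so 1 is a 2-fold change, and it understates the change of dim probes. Between 19307 and 20307 probes were detected per array. Array 1 of those labelled mutant stood apart from the other 5. It was the highest or the lowest of the 6 arrays for 60.2% of the 19735 probes tested. All 5 endothelium genes and all 6 mesenchyme genes tested, and 5 of the 6 blood genes tested, were highest there. The targeted genes did not settle the labels. Hoxa5 stood between 13.94 and 14.03 on the wild-type arrays and at 13.15, 13.81 and 13.67 on those labelled mutant. Hoxc5 stood between 6.47 and 6.68 and at 6.58, 7.65 and 7.71. The sources used here do not place these probes inside or outside the deleted parts, and every direction below rests on the labels. Below, 3 values in a row are those of replicates 1, 2 and 3. With 3 arrays per group, the number of arrays limits the precision.

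The first question was which members were detected in the sorted cells. Markers of spinal interneurons were detected beside those of motor neurons: all 11 interneuron markers on 5 arrays and 10 on labelled mutant 3, with Lhx1, En1 and Gad1 on all 6, against 9 to 11 of 11 motor neuron markers per array. Wild-type means of the interneuron markers ran from 5.25 (Lbx1) to 12.58 (Slc32a1). Those of the motor neuron markers ran from 4.92 (Isl2) to 11.35 (Slit2), with Mnx1 at 5.78. From which cell type a member's RNA came was not tested. Of the 19 semaphorin genes with a probe, 15 had at least 1 probe detected on all 6 arrays. They were Sema3a, Sema3b, Sema3c and Sema3f of the secreted class 3, Sema4a, Sema4b, Sema4d, Sema4f and Sema4g of class 4, Sema5a, all 4 class 6 genes (Sema6a, Sema6b, Sema6c and Sema6d) and Sema7a. Classes 4 to 6 span the membrane, and Sema7a is held by a lipid anchor. Sema3d and Sema3e were each detected on a single array, and Sema3g and Sema4c on none.

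Of the 11 receptor genes, 6 had a probe detected on all 6 arrays, namely Nrp1, Nrp2, Plxna2, Plxnb1, Plxnb2 and Plxnc1. Plxnd1 was detected on 4 arrays with its best probe. The probes of Plxna1, Plxna3, Plxna4 and Plxnb3 were detected on no array. Plxna1, Plxna3 and Plxna4 each had a single probe, so their RNA could not be seen here, which is not evidence that it was absent. Plxna2 shows how much depends on the probe, since 1 of its 3 probes stood between 10.28 and 10.72 and the other 2 were detected on no array. The same split was seen within Nrp2, for which 3 of 6 probes were detected on every array.

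**Figure D1:**
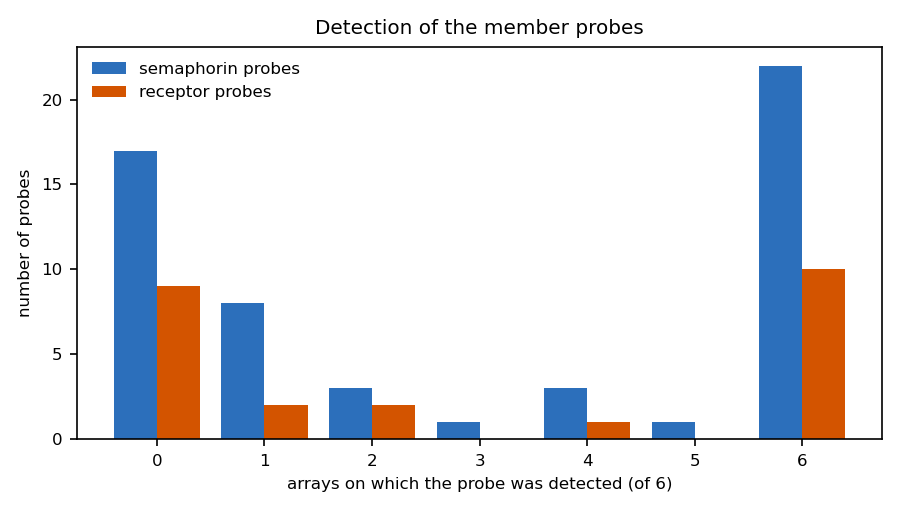
Number of member probes (y axis) by the number of arrays, of 6, on which each was detected (x axis), for 55 semaphorin and 24 receptor probes. Most probes sat at either end: 22 semaphorin and 10 receptor probes were detected on all 6 arrays, 17 and 9 on none.

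A probe was tested if it was detected on at least 3 of the 6 arrays. This left 38 member probes of 22 genes, 27 for ligands and 11 for receptors, and none of the 38 was detected in 1 group only. The other 41 probes have no test. Probes of 1 gene read the same RNA and are not replicates of each other.

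The second question was whether these genes differed between the arrays labelled mutant and the wild-type arrays. None of the 38 probes passed limma's test at an adjusted p of 0.05, where 0% of the 19735 probes tested passed. Each had a limma adjusted p of 0.998. At an unadjusted p under 0.05 the count was also 0 of 38, beside 1.9% of all probes tested, and the smallest unadjusted p in the limma fit was 0.0576, for a Sema3b probe. Without labelled mutant 3 that count was 5 of 37, beside 678 of all 19174 probes then tested. The 5 were 2 Nrp1 probes and 1 each of Sema3b, Sema6b and Sema6c, and 0 of 37 passed after adjustment. Differences ran from −0.47 to 0.56 among ligand probes and from −0.24 to 0.64 among receptor probes. A miss of the threshold does not show that the levels were alike, but the intervals set limits. For 20 of 27 ligand probes and 10 of 11 receptor probes the 95% interval lay between −1 and 1, within a 2-fold change either way, as it did for 84% of all probes tested. The groups did not overlap for 1 of the 38 probes, that Sema3b probe, which was higher on the arrays labelled mutant. This is the same share as the 2.63% of all probes tested that were separated in that direction, and 0 of 38 were separated the other way, beside 3.29%.

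**Figure D2:**
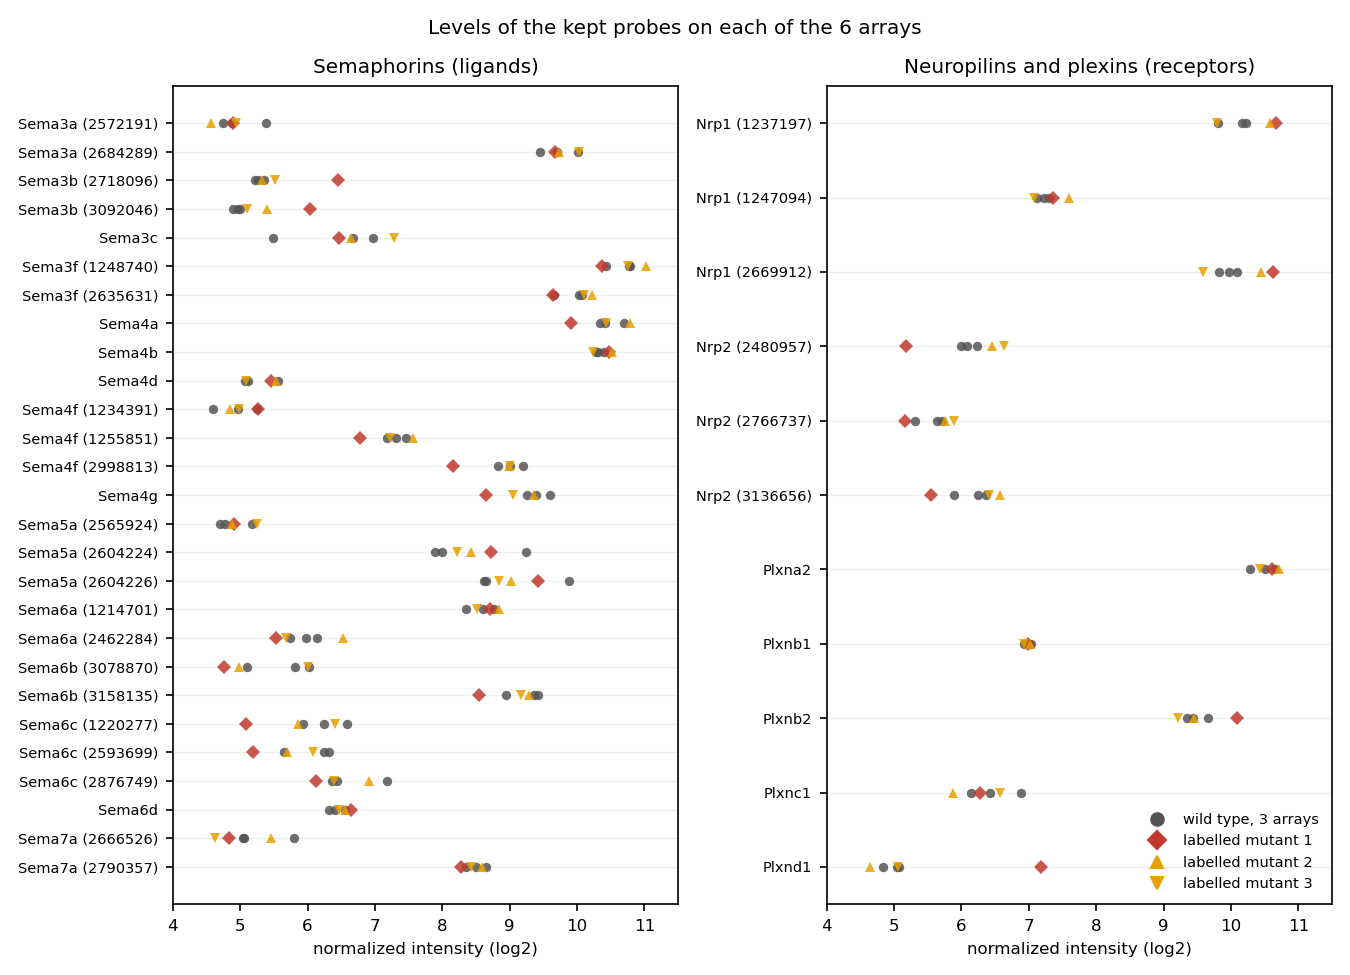
Normalized log2 intensity (x axis) of each of the 38 tested probes on each array, semaphorins left and receptors right, with the number of the probe in brackets where a gene has several. Grey circles are the 3 wild-type arrays and coloured symbols the 3 labelled mutant. Plxnd1 reached 7.18 on labelled mutant 1 and was at or below 5.08 on the other 5 arrays.

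Secreted class 3 ligands were higher on the arrays labelled mutant for 6 of 7 tested probes, beside 45.6% of all probes tested. Sema3a, Sema3b and Sema3f gave 2 each of these 7 probes and Sema3c 1, so the count is not one of separate genes. The class 3 median difference was 0.091, beside −0.023 for all probes tested. Without labelled mutant 1 the count was again 6 of 7, beside 51.2%, and the median was 0.23, beside 0.0047. Among these ligands Sema3a, the founding repellent of motor and sensory axons, gave close values in both groups. Its brighter probe ILMN_2684289 stood at 9.45, 10.01 and 9.70 on the wild-type arrays and 9.68, 9.73 and 10.03 on the arrays labelled mutant. The groups overlapped throughout, with a difference of 0.091 (95% interval −0.38 to 0.561). The other tested probe of Sema3a was detected on 4 arrays and differed by −0.20 (95% interval −0.71 to 0.311), the opposite sign.

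Sema3f, the Nrp2 ligand, was read by 2 tested probes that followed each other closely. Probe ILMN_1248740 stood at 10.78, 10.42 and 10.78 on the wild-type arrays and 10.37, 11.03 and 10.75 on the arrays labelled mutant. Probe ILMN_2635631 stood at 10.03, 9.66 and 10.08 on the wild-type arrays and 9.64, 10.22 and 10.10 on the arrays labelled mutant. On both probes labelled mutant 1 was the lowest array and labelled mutant 2 the highest, and the differences were 0.055 (95% interval −0.452 to 0.562) and 0.062 (95% interval −0.439 to 0.562).

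Sema3c, which can attract or repel axons and also guides neural crest and vessels, varied most among the wild-type arrays. It stood at 6.68, 6.97 and 5.49 on the wild-type arrays and 6.47, 6.65 and 7.28 on the arrays labelled mutant. Wild-type array 3 was the lowest and labelled mutant 3 the highest, and the difference was 0.42 (95% interval −0.532 to 1.38), an interval that does not exclude a 2-fold rise. Without wild-type array 3 it was −0.021.

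Sema3b, a further class 3 ligand of the neuropilins, came nearest to a difference. Probe ILMN_3092046 stood at 4.89, 4.998 and 4.97 on the wild-type arrays and 6.04, 5.40 and 5.10 on the arrays labelled mutant. Probe ILMN_2718096 stood at 5.21, 5.26 and 5.36 on the wild-type arrays and 6.46, 5.33 and 5.52 on the arrays labelled mutant. Every array labelled mutant was above every wild-type array on the first probe, labelled mutant 3 by the least, while on the second labelled mutant 2 fell inside the wild-type range. The differences were 0.56 (95% interval −0.0236 to 1.15) and 0.49 (95% interval −0.202 to 1.19), both with a limma adjusted p of 0.998. Labelled mutant 1 was the highest array on both, and without it the differences were 0.30 and 0.15. With no background correction, which shrinks the differences of dim probes, they were 0.20 and 0.20. Of the 4 other Sema3b probes, 3 were detected on no array and 1 only on labelled mutant 3. In the gene order of assembly GRCm38.p6, Sema3b and Sema3f lie on chromosome 9 with 3 genes between them, and on labelled mutant 1 Sema3b was the highest of the 6 arrays and Sema3f the lowest.

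The membrane-bound class 4 ligands gave 3 probes with higher means on the arrays labelled mutant and 4 with lower ones. Sema4g had the smallest unadjusted p among the lower ligand probes. It stood at 9.38, 9.60 and 9.26 on the wild-type arrays and 8.65, 9.36 and 9.04 on the arrays labelled mutant. Labelled mutant 1 and 3 were below every wild-type array and labelled mutant 2 was inside their range. The difference was −0.40 (95% interval −0.908 to 0.114), and without labelled mutant 1 it was −0.22. Sema4b, by contrast, stood between 10.24 and 10.51 on all 6 arrays, with a difference of 0.08 (95% interval −0.28 to 0.44). Sema4a, which also acts in immune cells, stood at 9.92 on labelled mutant 1 and between 10.33 and 10.78 on the other 5. Sema4d, a ligand of Plxnb1, differed by 0.11 (95% interval −0.384 to 0.596).

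Sema4f had 3 tested probes, and they did not move together. Probes ILMN_2998813 and ILMN_1255851 were lowest on labelled mutant 1, at 8.15 and 6.77, and differed by −0.29 and −0.13. The third, ILMN_1234391, was highest on that array at 5.27, was detected on 4 arrays and differed by 0.09.

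Sema5a, whose thrombospondin repeats let it attract or repel axons, was set apart by a wild-type array. Probe ILMN_2604226 stood at 8.62, 8.64 and 9.87 on the wild-type arrays and 9.42, 9.02 and 8.85 on the arrays labelled mutant. Probe ILMN_2604224 stood at 7.89, 7.995 and 9.24 on the wild-type arrays and 8.72, 8.42 and 8.22 on the arrays labelled mutant. Wild-type array 3 was the highest and labelled mutant 1 the next on both, and the groups overlapped. The differences were 0.052 (95% interval −0.797 to 0.9) and 0.076 (95% interval −0.788 to 0.94). The other tested probe was detected on 3 arrays and differed by 0.13.

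Class 6 ligands, transmembrane proteins that bind A-type plexins, were lower for 6 of 8 tested probes, with a median difference of −0.21, where 54.4% of all probes tested were lower and the median was −0.023. Sema6c gave 3 of these 6 probes. Its probe ILMN_1220277 stood at 5.93, 6.59 and 6.24 on the wild-type arrays and 5.09, 5.85 and 6.41 on the arrays labelled mutant. Probe ILMN_2593699 stood at 5.65, 6.31 and 6.25 on the wild-type arrays and 5.19, 5.69 and 6.09 on the arrays labelled mutant. On all 3 Sema6c probes labelled mutant 1 was the lowest array and wild-type array 2 the highest. Their differences were −0.47 (95% interval −1.28 to 0.346), −0.42 (95% interval −1.08 to 0.251) and −0.19 (95% interval −0.874 to 0.502). Without labelled mutant 1 they were −0.12, −0.18 and −0.00881.

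Sema6b behaved likewise on that array. Its brighter probe stood at 8.95, 9.42 and 9.35 on the wild-type arrays and 8.54, 9.29 and 9.16 on the arrays labelled mutant, and the second went undetected on labelled mutant 1. The differences were −0.24 and −0.39, and without that array −0.014 and −0.15. Sema6a and Sema6d showed no such shift on their brighter probes, with differences of 0.12 (95% interval −0.3 to 0.538) and 0.13 (95% interval −0.227 to 0.482). Without labelled mutant 1 the class 6 median was −0.011, with 5 of 8 probes lower, beside 48.8% of all probes tested.

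Sema7a, the lipid-anchored ligand that signals through integrins and Plxnc1, had a brighter probe between 8.28 and 8.64 on all 6 arrays and a difference of −0.065 (95% interval −0.45 to 0.321). Its dimmer probe ILMN_2666526 stood at 5.80, 5.04 and 5.06 on the wild-type arrays and 4.83, 5.45 and 4.63 on the arrays labelled mutant. It went undetected on labelled mutant 1 and 3 and was seen on the other 4 arrays. Its difference of −0.33 (95% interval −1.02 to 0.364) includes values from arrays without detection. The remaining probe was detected on no array.

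The neuropilins are the ligand-binding partners for class 3 semaphorins. Nrp1, which binds Sema3a and also VEGF, was read by 3 probes detected on every array. Probe ILMN_1237197 stood at 10.22, 9.81 and 10.16 on the wild-type arrays and 10.66, 10.58 and 9.79 on the arrays labelled mutant. Probe ILMN_2669912 stood at 10.09, 9.82 and 9.96 on the wild-type arrays and 10.62, 10.44 and 9.59 on the arrays labelled mutant. On both, and on the dimmer probe ILMN_1247094, labelled mutant 1 and 2 were above every wild-type array and labelled mutant 3 below every one. How many of all probes tested shared this pattern was not counted. The differences were 0.28 (95% interval −0.344 to 0.903), 0.26 (95% interval −0.397 to 0.912) and, for the dimmer probe, 0.13 (95% interval −0.293 to 0.547).

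Nrp2, which binds Sema3f, gave another pattern. Its 3 tested probes were dim, with raw intensities of 114.9 to 192.1, where array medians were 97.7 to 109.8. The 2 brighter Nrp1 probes ran from 842.3 to 1653.9. Probe ILMN_2480957 stood at 6.23, 5.99 and 6.08 on the wild-type arrays and 5.18, 6.46 and 6.63 on the arrays labelled mutant. Probe ILMN_3136656 stood at 6.37, 6.25 and 5.89 on the wild-type arrays and 5.55, 6.57 and 6.41 on the arrays labelled mutant. Probe ILMN_2766737 stood at 5.64, 5.72 and 5.31 on the wild-type arrays and 5.16, 5.76 and 5.89 on the arrays labelled mutant. On all 3 probes labelled mutant 2 and 3 were above every wild-type array and labelled mutant 1 was below every one, a pattern noticed in the values, which 2.72% of all probes tested shared.

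As a result the Nrp2 differences over 6 arrays were near 0, at −0.01, 0.00735 and 0.047. Without labelled mutant 1 they were 0.44 (95% interval 0.0563 to 0.832), 0.32 (95% interval −0.139 to 0.78) and 0.27 (95% interval −0.165 to 0.699), each with a limma adjusted p of 1. Nrp1 in that comparison differed by 0.12, 0.056 and 0.12 on its 3 probes. Without labelled mutant 3 the order was turned, with Nrp1 at 0.55, 0.57 and 0.25 and Nrp2 at −0.28, −0.11 and −0.094. On labelled mutant 1 itself the brighter Nrp1 probes were 0.60 and 0.66 above the wild-type mean, while the Nrp2 probes differed from theirs by −0.92, −0.62 and −0.39.

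The neuropilin promoters are shown because the genes are paralogs that lay on opposite sides of the wild-type values on labelled mutant 1. The windows run from 250 bases before to 50 after the annotated start (RefSeq, GRCm38.p6, plus strand for both), at chr8:128358823-128359122 for Nrp1 and chr1:62703067-62703366 for Nrp2. Capitals mark TAAT, the core that homeodomain proteins such as Hox factors bind, searched on both strands.
Nrp1: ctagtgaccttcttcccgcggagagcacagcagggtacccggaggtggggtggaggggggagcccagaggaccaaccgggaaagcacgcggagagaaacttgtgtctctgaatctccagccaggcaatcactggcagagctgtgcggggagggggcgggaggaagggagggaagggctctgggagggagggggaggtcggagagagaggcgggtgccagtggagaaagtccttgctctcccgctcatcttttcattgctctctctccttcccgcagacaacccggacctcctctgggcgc
Nrp2: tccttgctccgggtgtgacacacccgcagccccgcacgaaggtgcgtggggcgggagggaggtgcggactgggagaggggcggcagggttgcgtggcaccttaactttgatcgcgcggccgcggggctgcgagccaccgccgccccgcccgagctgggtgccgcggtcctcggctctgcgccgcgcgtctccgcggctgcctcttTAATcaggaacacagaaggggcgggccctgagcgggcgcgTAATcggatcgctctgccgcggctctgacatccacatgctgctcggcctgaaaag
The Nrp1 window held 0 matches and the Nrp2 window 2. Of all 32851 windows of this length 58% held TAAT, and of the 37 windows of 26 member genes held by RefSeq's promoter table, 43.2% did. The longer motif TGATNNAT, bound by Hox proteins with Pbx partners, was searched on both strands too and may overlap TAAT. It occurred in 8.85% of all windows and in 1 window of the members, at 1 of 2 starts of Sema6d (chr2:124653331-124653630, plus strand), in capitals here beside a separate TAAT.
Sema6d: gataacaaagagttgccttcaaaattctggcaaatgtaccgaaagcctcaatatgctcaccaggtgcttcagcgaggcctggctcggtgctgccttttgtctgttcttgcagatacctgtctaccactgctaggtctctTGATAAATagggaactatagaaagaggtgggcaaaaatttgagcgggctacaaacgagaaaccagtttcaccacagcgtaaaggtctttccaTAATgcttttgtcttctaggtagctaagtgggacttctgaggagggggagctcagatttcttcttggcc
These matches describe letters in a window and do not show a binding site, and their link to the array values was not tested. Sema6d, the ligand of A-type plexins read by 1 tested probe, stood at 6.32, 6.56 and 6.40 on the wild-type arrays and 6.64, 6.56 and 6.46 on the arrays labelled mutant and overlapped between the groups.

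Among the A-type plexins, the signalling partners of neuropilins, only the detected Plxna2 probe could be tested. It stood at 10.66, 10.28 and 10.51 on the wild-type arrays and 10.62, 10.72 and 10.43 on the arrays labelled mutant. The groups overlapped, and the difference was 0.11 (95% interval −0.296 to 0.506). That interval excludes a 2-fold change in either direction for this probe.

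The B-type plexins bind class 4 semaphorins. Plxnb1, the Sema4d receptor, was the steadiest of the tested members. It stood at 6.93, 7.005 and 7.03 on the wild-type arrays and 6.98, 7.02 and 6.93 on the arrays labelled mutant. Group means were 6.99 ± 0.0496 (SD, n = 3) and 6.98 ± 0.0434 (SD, n = 3), and the difference was −0.0099 (95% interval −0.338 to 0.318). Plxnb2 stood at 9.65, 9.35 and 9.44 on the wild-type arrays and 10.09, 9.45 and 9.21 on the arrays labelled mutant. Labelled mutant 1 was the highest array and labelled mutant 3 the lowest, and the difference was 0.10 (95% interval −0.478 to 0.687). Without labelled mutant 1 the Plxnb2 difference was −0.15.

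Plxnc1, the Sema7a receptor, stood at 6.15, 6.42 and 6.88 on the wild-type arrays and 6.28, 5.87 and 6.58 on the arrays labelled mutant. The groups overlapped, with a difference of −0.24 (95% interval −0.852 to 0.368). Its second probe was detected on labelled mutant 1 alone.

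Plxnd1, the Sema3e receptor, is known both for sorting motor neuron pools and for its strong expression in endothelium. It showed the largest single-array departure among the tested member probes. Probe ILMN_1214608 stood at 5.04, 5.08 and 4.83 on the wild-type arrays and 7.18, 4.64 and 5.06 on the arrays labelled mutant, and it was undetected on wild-type array 3 and labelled mutant 2. Group means were 4.98 ± 0.135 (SD, n = 3) and 5.62 ± 1.36 (SD, n = 3), and the difference was 0.64 (95% interval −0.779 to 2.06). Without labelled mutant 1 it turned to −0.14 (95% interval −0.59 to 0.313). A second Plxnd1 probe, ILMN_2550095, detected on 2 arrays and so not tested, stood at 4.87, 4.69 and 4.44 on the wild-type arrays and 6.37, 4.72 and 4.52 on the arrays labelled mutant. These 2 probes were thus high on labelled mutant 1 and at 5.08 or less on the other arrays. The third Plxnd1 probe, ILMN_3162354, was detected on no array. It stood at 4.46 on labelled mutant 1 and between 4.49 and 4.61 on the wild-type arrays. Sema3e, the ligand of Plxnd1, was detected by 1 of its 4 probes and on 1 array, labelled mutant 1.

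Markers of other cell types moved with these values on labelled mutant 1. Of 12 endothelium markers 11 were detected on that array and 3 to 6 on each of the other 5. Pecam1, Cdh5, Flt1 and Eng were detected on it alone, and Tie1 on none. The summed intensity of the 5 endothelium markers tested was 4112 there, 291.7 to 560.2 on the wild-type arrays, and 485.6 and 318 on labelled mutant 2 and 3. The sum of the 6 mesenchyme markers tested was 16882 there and 1601 to 3691 on the wild-type arrays, and that of the 6 blood markers 72815 and 1313 to 10568. Of 12 motor neuron markers 11 had a probe, and all 11 passed the detection filter. Their summed intensity was 3863 there, 6737 to 7093 on the wild-type arrays, and 8691 and 4804 on labelled mutant 2 and 3. That sum weighs bright genes most, and 6 of the 11 were lowest there. Lhx4 stood at 6.62 on labelled mutant 1 and between 9.80 and 11.07 on the other 5 arrays. Slit2 stood at 11.14 on labelled mutant 1 and between 11.09 and 11.62 on the other 5. Interneuron markers were lowest on labelled mutant 1 for 9 of 11, with a sum of 14022 there, 25609 to 30457 on the wild-type arrays, and 27944 and 27371 on labelled mutant 2 and 3. Progenitor markers were highest there for 5 of 6 tested, with a sum of 16156 against 6357 to 10018 on the wild-type arrays. The other 2 listed progenitor markers, Pax6 and Olig2, were detected on no array. Of 7 macrophage markers 6 were detected there and 0 to 2 on each other array. The part of other cells in the values of Plxnd1, Sema3b, Nrp1, Nrp2 and the class 6 ligands was not tested. In such bulk samples fewer cells of a type and less RNA per cell cannot be told apart.

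**Figure D3:**
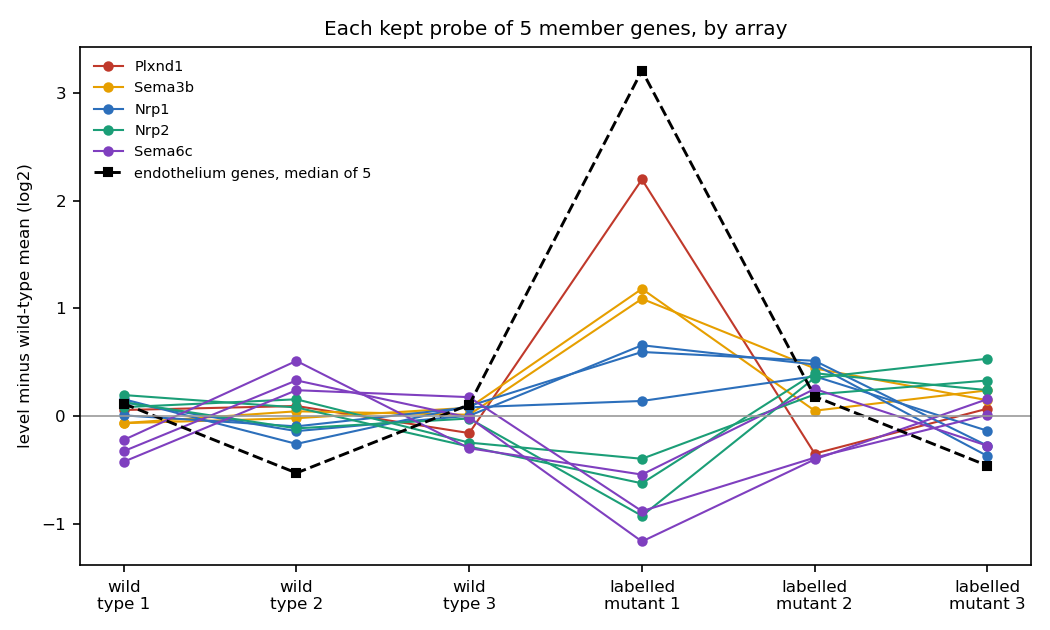
Level of each tested probe of Plxnd1, Sema3b, Nrp1, Nrp2 and Sema6c minus its wild-type mean (y axis, log2) on the 6 arrays (x axis), with the median of 5 endothelium genes as a dashed line. On labelled mutant 1 the endothelium median was 3.21 and Plxnd1 2.20 above the wild-type mean, while all Nrp2 and Sema6c probes were under it.

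The third question set ligands against receptors. Ligand probes were higher on the arrays labelled mutant for 14 of 27 and receptor probes for 8 of 11, where 45.6% of all probes tested were higher. Nrp1 and Nrp2 gave 3 each of the 11 receptor probes. With only the brightest probe per gene, 9 of 15 ligand genes and 5 of 7 receptor genes were higher. The share higher among all 13638 probes of that setting was not counted, and their median difference was −0.014. Over all tested member probes the median difference was 0.052 for ligands and 0.10 for receptors, beside −0.023 for all probes tested. These medians describe the probes that were tested and carry no test of their own. The ligand median was below 0 without wild-type array 1, 2 or 3 or labelled mutant 2 or 3, at −0.023, −0.076, −0.021, −0.084 and −0.0083, while the receptor median was above 0 in each case, between 0.0048 and 0.18.

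Array by array, relative to each probe's wild-type mean, the ligand median was −0.063, 0.070 and 0.0014 on the wild-type arrays and −0.22, 0.090 and −0.051 on the arrays labelled mutant. The receptor median was 0.13, −0.093 and 0.0056 on the wild-type arrays and 0.13, 0.23 and −0.051 on those labelled mutant. Ligands and receptors parted most on labelled mutant 1, by a low ligand median, and lay side by side on labelled mutant 3. A gap of the opposite kind, receptors under ligands, was present on wild-type array 2. Labelled mutant 1 was the lowest of the 6 arrays for 13 of 27 ligand probes and 3 of 11 receptor probes, beside 36.8% of all probes tested, and the highest for 4 and 4, beside 23.4%. Without it the medians were 0.029 for ligands and 0.092 for receptors, with 14 of 26 and 7 of 11 probes higher, beside 51.2% of all probes tested. A Sema5a probe then fell under the detection filter.

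**Figure D4:**
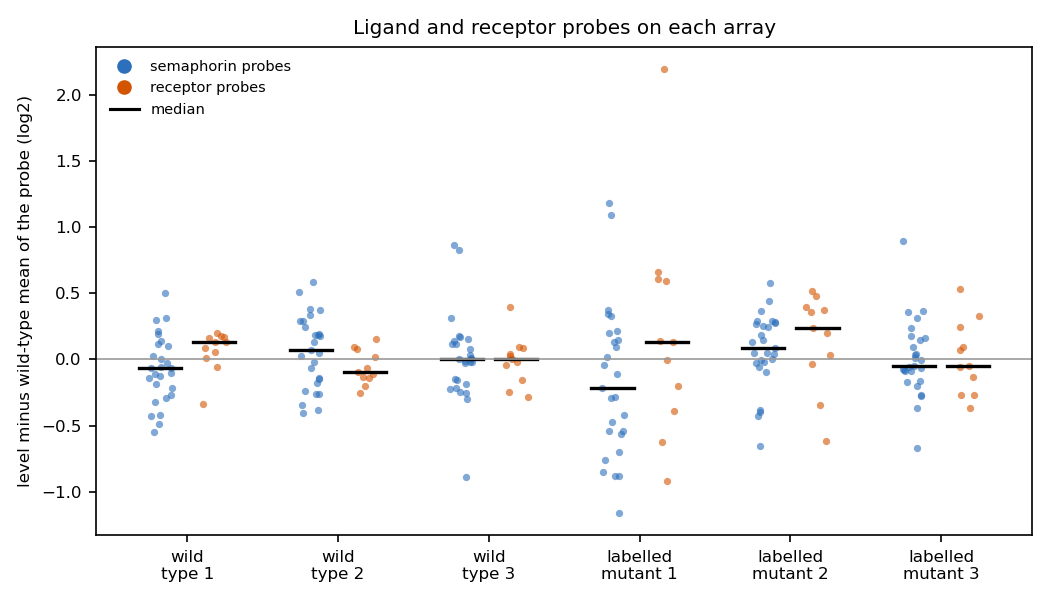
Level minus the wild-type mean of the probe (y axis, log2) for 27 ligand and 11 receptor probes on each array (x axis), with black bars at the medians. On labelled mutant 1 the ligand median lies at −0.22 and the receptor median at 0.13, and both lie at −0.051 on labelled mutant 3.

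Agreement between probes of 1 gene was another limit. Of 9 ligand genes with several tested probes, 6 gave the same sign on all of them, and of 2 such receptor genes 1 did, namely Nrp1. Sema3a, Sema4f, Sema6a and Nrp2 gave mixed signs.

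**Figure D5:**
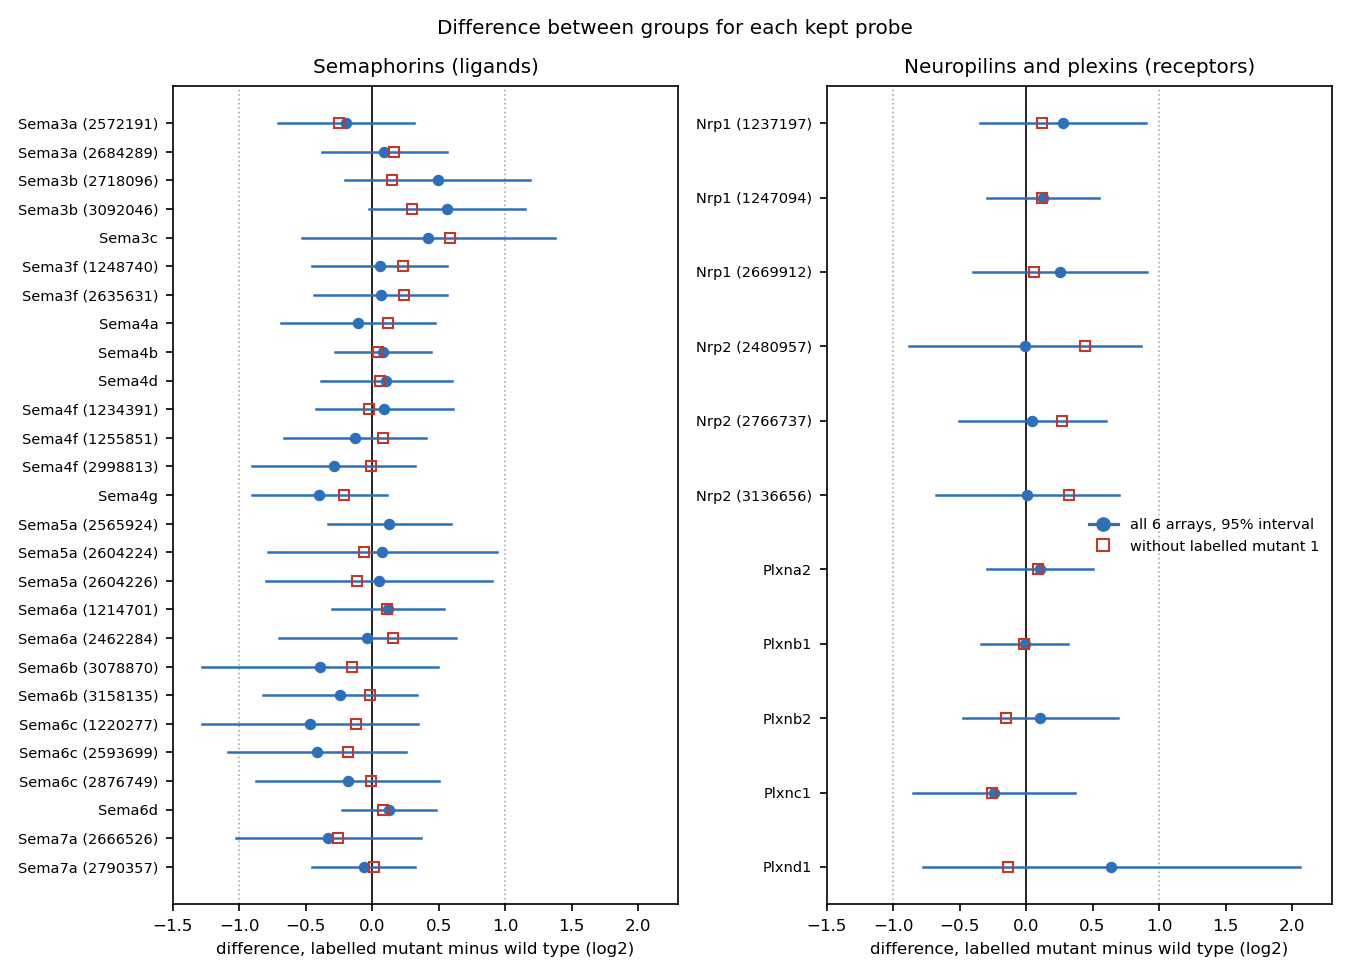
Difference between the arrays labelled mutant and the wild-type arrays (x axis, log2) for each tested probe, with filled points and 95% intervals from all 6 arrays and open squares without labelled mutant 1; a square is missing where the probe was then not tested. Every interval crosses 0, the dotted lines mark a 2-fold change, and Plxnd1 moves from 0.64 to −0.14.

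Genes that work with these receptors were followed as a list of 54 further genes, 16 co-receptors and binding partners and 38 downstream of plexins. Of the 37 with a tested probe, 0 passed in either direction, 19 were higher and 18 lower, with a median difference of 0.010. At an unadjusted p under 0.05 the count was 1 of 37, beside 1.9% of all probes tested. The groups did not overlap for 2 higher genes, beside 2.63% of all probes tested, and for 1 lower gene, beside 3.29%. The higher genes next in order of p, after that 1, were Cntn2 and Rap1b. Cntn2, an adhesion protein of commissural and motor axons, differed by 0.60, and by 0.42 without labelled mutant 1. The small GTPase gene Rap1b differed by 0.23 with no overlap between the groups, and by 0.10 without labelled mutant 1.

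The 3 lower ones were Cfl1, Cdk5 and Itgb1. Cfl1 encodes cofilin, which severs actin filaments and is a target of Sema3a signalling. It stood at 8.70, 8.51 and 8.40 on the wild-type arrays and 8.12, 8.04 and 8.32 on those labelled mutant, every one below the wild-type values. The difference was −0.38 (95% interval −0.76 to 0.00735), and without labelled mutant 1 it was −0.36. Cdk5, a kinase that phosphorylates the CRMP proteins downstream of Sema3a, differed by −0.24, and by −0.083 without labelled mutant 1. Itgb1, the integrin subunit used by Sema7a, differed by −0.27, and by −0.19 without that array. The CRMP genes themselves, Crmp1 and Dpysl2 to Dpysl5, were detected on all 6 arrays and differed by −0.12 to 0.039. L1cam, a partner of Nrp1, and Met, a partner of B-type plexins, were among 15 listed genes whose probes did not reach the detection filter. Kdr and Flt1, VEGF receptors that pair with neuropilins, were also among these and stand in the endothelium list too.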

How the data were processed

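Sorted cervical motor neurons from 3 wild-type samples and 3 labelled mutant were each read on 1 Illumina single-colour bead array. The authors deposited a non-normalized table with an intensity and a detection p-value for every probe. A second deposited table holds the authors' processed intensity values. Quantile-normalizing the uncorrected intensities came within 1.43% of the authors' values, and the text uses the first table. Raw intensities ran from 71.3 to 56712.5, with medians of 97.7 to 109.8 per array. Probe sequences are not used here.

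Intensities were background-corrected by normexp (limma's nec, which uses the detection p-values; offset 16), quantile-normalized and put on the log2 scale (limma 3.58.1, R 4.3.3). Probes with a detection p under 0.05 on at least 3 of 6 arrays were tested, 19735 of 45281. limma's lmFit and eBayes were run on each probe, with Benjamini-Hochberg adjustment over all 19735, and the fitting was tested on simulated data. Each gene of the partner and marker lists was taken by its brightest tested probe. Symbols came from the platform annotation, in which 34885 probes had 1 symbol, 18 several and 10378 none, and 30 of 31 members were matched to RefSeq (GRCm38.p6) through it.

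Array values are given for the members known from motor axon guidance, for the 4 ligand and 4 receptor probes of smallest unadjusted p each way, and for probes whose groups did not overlap. The dimmer tested probes of Sema3a and Nrp1 fall under this rule but are given without array values. From the partner list the 3 genes with the smallest p in each direction were chosen, of which 1, the one with the smallest p, is not reported here. Array values of Sema5a, Sema6b, Plxnb2 and the untested Plxnd1 probe, the values of the other members named and the CRMP genes were added after the values were seen. Members and lists were chosen with earlier results of these data known. Alternatives covered background correction, offset, normalization, detection filter, summary per gene, array weights, a replicate block and leaving out arrays. Sensory neuron, Schwann cell and muscle markers were also tabulated: 1 of 4, 2 of 2 and 0 of 2 tested were higher on the arrays labelled mutant, and none passed.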

Additional observations from a re-analysis of the deposited data

How the results depend on the processing

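The count of member probes passing was 0 under all 19 alternatives tried. Over all probes it was 0 except for 1 probe with median scaling (Thap4, limma adjusted p 0.0409) and 1 without labelled mutant replicate 3 (Cops8, limma adjusted p 0.000997), both named after their values were seen. The number of all probes at an unadjusted p under 0.05, 375 in limma's fit, was 1338 with no filter and otherwise between 218 and 822. Among member probes that count was 0 of 38 in limma's fit. It was 5 of 37 without labelled mutant replicate 3, beside 678 of all 19174 probes tested. With no filter it was 3 of 79, beside 1338 of 45281. It was 1 of 38 with median scaling (238 of all 19735) or array weights (822 of 19735). Leaving out labelled mutant replicate 2 gave 1 of 38 (488 of 19112), and replicate 1 gave 1 of 37 (454 of 19063). Leaving out both arrays numbered 1 gave 1 of 34 (591 of 18136), and the remaining alternatives gave 0. The ligand median difference ran from −0.084 to 0.029 as single arrays were left out, at −0.076 without wild-type replicate 2 and −0.084 without labelled mutant replicate 2. The receptor median ran from 0.0048 to 0.18.

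Of 22 member probes followed through every alternative that tested them, 13 kept their direction and 9 did not, and the lowest limma adjusted p was 0.828. As single arrays were left out, the difference ran from −0.14 to 1.13 for Plxnd1, −0.021 to 0.72 for Sema3c, −0.037 to 0.013 for Plxnb1 and −0.045 to 0.23 for the brighter Sema3a probe. It ran from −0.10 to 0.23 and −0.067 to 0.24 for the Sema3f probes, and from −0.28 to 0.44, −0.094 to 0.27 and −0.19 to 0.32 for the Nrp2 probes. Without background correction the differences of dim probes shrank, to 0.20 for both Sema3b probes, 0.31 for Plxnd1, 0.21 for Sema3c, −0.12 for Plxnc1 and −0.19 and −0.17 for the 2 Sema6c probes followed. Plxnb1 turned to 0.027 with cyclic loess and 0.032 with median scaling. Nrp2 probe ILMN_2480957, near 0 in the report, turned to 0.029 without background correction, 0.013 with normexp without detection p-values, 0.025 with an offset of 50, 0.022 with cyclic loess, 0.020 with median scaling and 0.029 in the authors' values. It was 0.32 with array weights and 0.51 with both arrays numbered 1 left out. The cause was not tested, apart from the arrays left out by construction.

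Same-numbered samples deviated with correlations of 0.32, 0.023 and 0.14. Differently numbered samples gave correlations from −0.48 to 0.39, so the numbers were not taken as pairs. With a replicate block 0 probes passed and the smallest limma adjusted p was 0.954, against 0.21 without it. Probes near the background, such as those of Plxnd1, Sema3b, Sema4d, Nrp2 and Sema6c, limit what 6 arrays can show.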
